A study of Arabidopsis thaliana with 12 samples.

Results

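The 4 genes described here, RPL17 (AT3G54210), RPL5 (AT4G01310), RPS10 (AT3G13120) and RPS6 (AT1G64510), are nuclear genes for proteins of the plastid ribosome, taken by their probe numbers 1739, 4297, 1011 and 1284 on an expression array. Each of these probes is annotated with a single gene, and they are 4 of the 692 such probes among 3439. Total RNA had been measured in 6 samples of wild-type (WT) Arabidopsis thaliana and 6 samples of the toc132 mutant, both in ecotype Columbia 0. Samples carry the numbers 1 to 6 in each group. The mutant is labelled as impaired in the import of proteins through the outer envelope of the chloroplast. The labels used here name neither the allele nor the organ, age or growth conditions, and nothing in them says that each sample is a plant or culture of its own. The p-values therefore refer to the spread among these 12 samples, part or all of which may be technical.

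The plastid ribosome is of the bacterial type. Some of its proteins are encoded in the plastid genome, while the others are encoded in the nucleus, made in the cytosol with a transit peptide and imported through the TOC and TIC complexes of the envelope. TOC132 is one of the receptors that recognise such precursors at the outer membrane, and together with TOC120 it has been associated with precursors of housekeeping proteins of the plastid, to which ribosomal proteins belong. The array measures transcripts and not import, so the comparison asks whether the transcripts of these import substrates differ in level between toc132 and WT.

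Values were linear intensities between 0 and 100 in arbitrary units, which were put on the log2 scale and quantile normalised, so that all samples share 1 distribution. Summed intensities lay between 3536 and 3857 per sample. WT samples 1 and 2 stood apart from their group. Across 2907 probes, their median Pearson's r was 0.626 with WT 3 to 6 and 0.909 with the 6 toc132 samples. Each member's difference between the groups is given with and without them. They were singled out by the same values that are compared. Leaving out WT samples that resemble toc132 tends to enlarge the differences, so the fits without them give no separate support. In the deposited values the median of all probes was 0.71 (log2) higher in toc132 than in WT among samples numbered 1 and 2. Among those numbered 3 and 4 this difference was -0.55, and among 5 and 6 it was 0.08, shifts that normalisation removes. The deposited median was -0.63 and -0.62 (log2) in toc132 1 and 2 and -0.73 in both WT 3 and WT 4. In the other samples it lay between -1.34 and -1.10. No probe for TOC132 alone was identified, and TOC132 itself was not analysed here. In bulk RNA, fewer cells of a type and less RNA per cell cannot be told apart, and the share of green tissue in the samples is not known from the labels.

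Of the 4 transcripts, after quantile normalisation, RPL17 was lower in toc132 and RPL5 higher for every number, while for RPS10 and RPS6 the numbers went both ways. None of these differences passed the test over all probes. With limma and Benjamini-Hochberg adjustment over 3190 probes, 0 of the 4 members passed an adjusted p of 0.05, beside 0% of all probes. At an unadjusted limma p under 0.05 there was 1 of the 4, RPL17, where 25.3% of all probes stood. The median log2 difference of the 4 was -0.33, with 1 higher and 3 lower in toc132, beside -0.06 over all probes with 1465 higher and 1725 lower. WT and toc132 values overlapped for each of the 4, and 2.88% of all probes had groups that did not overlap.

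**Figure D1:**
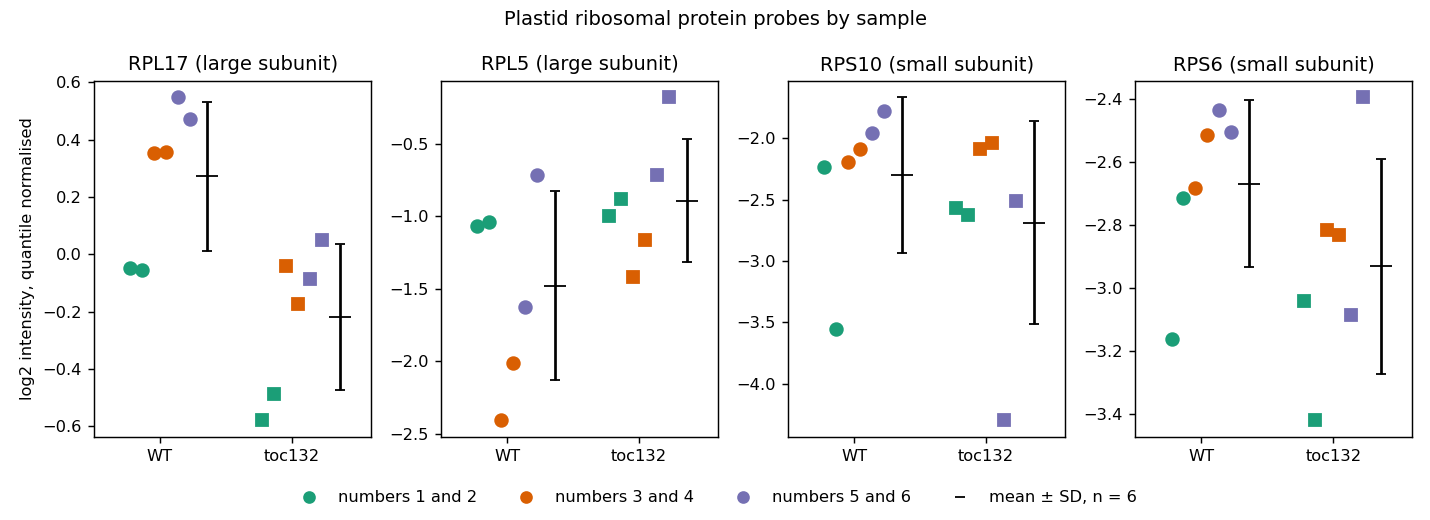
Quantile-normalised log2 intensity (vertical axis, 1 scale per panel) of the 4 plastid ribosomal protein probes in 6 WT samples (circles) and 6 toc132 samples (squares), coloured by sample number, with the mean ± SD of each group. RPL17 of WT 3 to 6 lies above all toc132 samples, and RPS10 has 1 low sample in each group.

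RPL17 is a protein of the large subunit which in Escherichia coli lies near the exit of the peptide tunnel. Its deposited intensity in WT was 0.806 at the lowest, 1.48 at the median and 1.55 at the highest. In toc132 the lowest was 0.766, the median 0.873 and the highest 0.978. The 4 WT samples numbered 3 to 6 were all above every toc132 sample, while WT 1 and WT 2 lay among the toc132 samples. After normalisation the mean log2 intensity of the WT samples was 0.27 ± 0.26 (SD, n = 6), against -0.22 ± 0.26 (SD, n = 6) for toc132. That is 0.712-fold of WT, with a 95% interval of 0.529 to 0.957. The log2 difference was -0.49 ± 0.20 (SE), with a limma p of 0.0276 and an adjusted p of 0.156. This interval and p treat all samples as independent, although samples of consecutive numbers within a group were close. With such samples as a random block, the SE was 0.27 and the unadjusted limma p 0.0926. With them averaged, the SE was 0.39 and the unadjusted limma p 0.245.

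The difference of RPL17 was even over the sample numbers after quantile normalisation, and less so under the other scalings. Numbers 1 and 2 gave -0.48 (log2), numbers 3 and 4 gave -0.46, numbers 5 and 6 gave -0.53, and each of the 6 numbers was negative. In the deposited values it was 0.12, -0.92 and -0.68 for the same numbers, so the first of these had the opposite sign. Set against the median of all probes, which was 0.71 higher for numbers 1 and 2, RPL17 was lower there too: with median centring the values were -0.60, -0.37 and -0.76, and with cyclic loess -0.30, -0.48 and -0.88. Without WT samples 1 and 2 the log2 difference was -0.65 ± 0.19 (SE) with a limma adjusted p of 0.0204. That is the 1 member that passed in this fit, where 35.6% of all probes passed as well. WT 1 and 2 had been singled out from these same values and lay among the toc132 samples for RPL17, so this p is no separate support. Its probe was brighter than 75.9% to 85.8% of all probes within the WT samples and than 63.6% to 77.9% within the toc132 samples.

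RPL5, the other measured protein of the large subunit, belongs to the family that binds the smallest RNA of the large subunit in bacteria. Its deposited intensity in WT was 0.205 at the lowest, 0.337 at the median and 0.554 at the highest. In toc132 these were 0.321, 0.618 and 0.829. The ranges overlapped widely, with WT 1, 2 and 6 inside the toc132 range and toc132 3 and 4 inside that of WT. Mean log2 intensity of the WT samples was -1.48 ± 0.65 (SD, n = 6), against -0.89 ± 0.43 (SD, n = 6) for toc132. The level in toc132 was 1.5-fold of WT, with a 95% interval of 0.938 to 2.40. The log2 difference was 0.59 ± 0.31 (SE) with a limma adjusted p of 0.241. This interval and p again treat all samples as independent. With samples of consecutive numbers as a random block, the SE was 0.61 and the unadjusted limma p 0.351, in place of 0.0845.

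RPL5 was higher in toc132 for all 6 numbers, but by unequal amounts. Numbers 1 and 2 differed by 0.12 (log2), numbers 3 and 4 by 0.92, and numbers 5 and 6 by 0.72. For the first of these it was 0.81 in the deposited values, close to the shift of all probes there, 0.10 with median centring and 0.0095 with cyclic loess, where number 1 alone turned to -0.012. Numbers 3 to 6 had a higher value in toc132 under each of the 4 scalings, from 0.42 to 1.25 by number. Without WT 1 and 2 the log2 difference was 0.80 ± 0.34 (SE) with a limma adjusted p of 0.0889. The RPL5 probe was brighter than 17.05% to 59.7% of all probes within the WT samples and than 38.8% to 73.3% within the toc132 samples. WT 3 and WT 4, which enter the difference of 0.92, were its dimmest samples, at 17.05% and 24.2%.

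**Figure D2:**
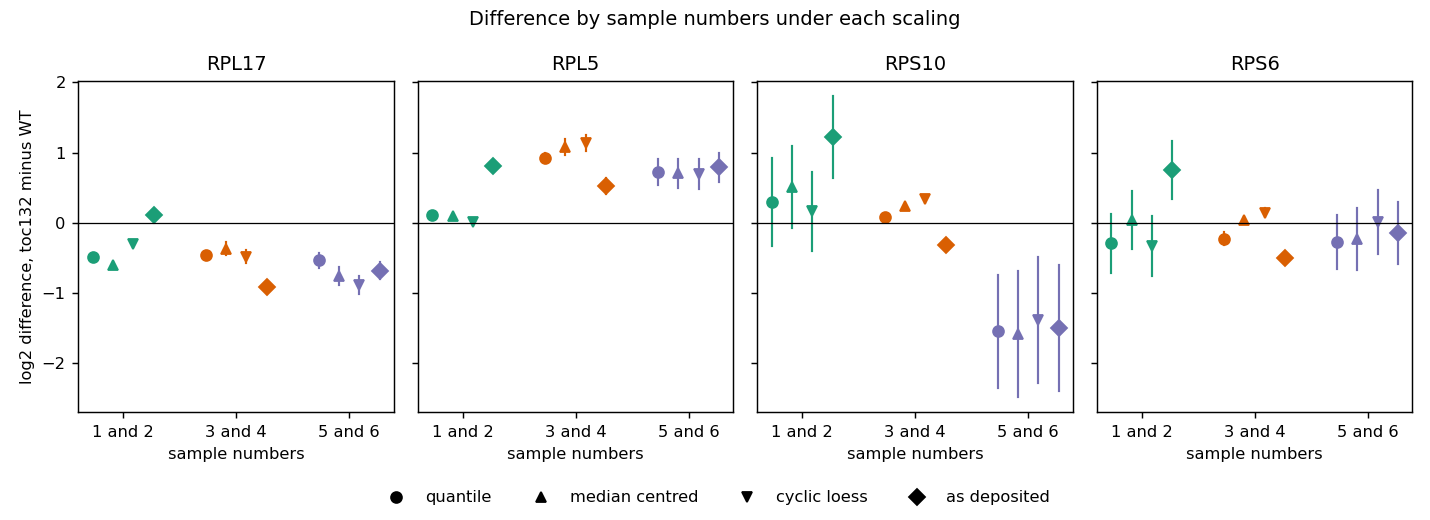
Log2 difference, toc132 minus WT (vertical axis), for the sample numbers 1 and 2, 3 and 4, and 5 and 6 (horizontal axis), under 4 scalings. Symbols are the mean of 2 numbers and lines join the 2 single differences; RPL17 is below 0 in all but the deposited values of numbers 1 and 2, and RPS10 for 5 and 6 spans a wide range.

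RPS10 is a small-subunit protein whose bacterial counterpart also takes part in transcription antitermination in Escherichia coli. Its deposited intensity in WT was 0.0739 at the lowest, 0.234 at the median and 0.269 at the highest, and in toc132 0.0422, 0.207 and 0.270. The lowest value of each group was a single sample far below the others, WT 2 and toc132 5, while the adjacent samples WT 1 and toc132 6 stood at 0.173 and 0.170. Mean log2 intensity of the WT samples was -2.30 ± 0.64 (SD, n = 6), against -2.69 ± 0.83 (SD, n = 6) for toc132. This is 0.764-fold of WT with a 95% interval of 0.420 to 1.39, and a limma adjusted p of 0.538. The log2 difference was -0.39 ± 0.40 (SE), but -0.064 without toc132 5 and -0.64 without WT 2. With samples of consecutive numbers as a random block, its SE was 1.04, so the interval above is too narrow if such samples are not independent.

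For RPS10 the numbers went different ways. Numbers 1 and 2 had a mean log2 difference of 0.30, where the single values were -0.33 and 0.93. This mean was 1.22 in the deposited values (0.64 and 1.81), 0.51 with median centring and 0.16 with cyclic loess. The mean was 0.079 over numbers 3 and 4 and -1.54 over numbers 5 and 6, with single values of -2.34 and -0.74. Numbers 3 and 4 gave -0.31 in the deposited values, 0.24 with median centring and 0.34 with cyclic loess. Numbers 5 and 6 lay between -1.58 and -1.39 under the other scalings. Leaving out numbers 5 and 6 of both groups turned the difference to 0.18, and without WT 1 and 2 it was -0.69 with a limma adjusted p of 0.193. The probe was dim, brighter than 3.05% to 29.4% of the probes of a sample.

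RPS6, which in bacteria sits on the platform of the small subunit, was dim as well, brighter than 6.57% to 17.3% of the probes of a sample. Its deposited intensity in WT was 0.0911 at the lowest, 0.155 at the median and 0.189 at the highest, and in toc132 0.106, 0.144 and 0.204. The ranges of the groups nearly coincided. Mean log2 intensity of the WT samples was -2.67 ± 0.27 (SD, n = 6), against -2.93 ± 0.34 (SD, n = 6) for toc132, or 0.833-fold of WT with a 95% interval of 0.604 to 1.15. The limma adjusted p was 0.436 for a log2 difference of -0.26 ± 0.22 (SE). Here too the samples were treated as independent, and with those of consecutive numbers as a random block the SE was 0.47.

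After quantile normalisation, and under no other scaling tried, the 3 values of RPS6 by number were alike, at -0.29 over numbers 1 and 2, -0.23 over 3 and 4, and -0.27 over 5 and 6. In the deposited values they were 0.75, -0.51 and -0.15, with median centring 0.041, 0.044 and -0.23, and with cyclic loess -0.33, 0.15 and 0.015. Within numbers 1 and 2 the single quantile-normalised differences were 0.12 and -0.71, and within 5 and 6 they were -0.65 and 0.11, so 4 of the 6 numbers were lower. The direction rested on the scaling: the overall log2 difference was -0.048 with median centring, -0.055 with cyclic loess and 0.034 in the deposited values. It was -0.17 without toc132 2. Without WT 1 and 2 it was -0.40 with a limma adjusted p of 0.161.

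How many members kept 1 direction over the numbers depended on the scaling. After quantile normalisation, 3 (RPL17, RPL5 and RPS6) had the same direction in all 3 pairs of numbers, beside 38% of 2907 complete probes. It was 2 (RPL17 and RPL5) with median centring, beside 31.4%, and the same 2 with cyclic loess, beside 32.7%. It was RPL5 alone in the deposited values, beside 23.7%. The direction for numbers 1 and 2 was opposite to that for both other pairs in 0 members after quantile normalisation, beside 33.3% of complete probes, and in 0 with median centring, beside 39.7%. With cyclic loess this held for 1 member (RPS6), beside 38.8%, and in the deposited values for 3 (RPL17, RPS10 and RPS6), beside 43.9%. A same direction for all 6 numbers was seen after quantile normalisation for RPL17 and RPL5, beside 25.9% of complete probes. RPL17 lost it in the deposited values, and RPL5 with cyclic loess. With the replicate number as a block, limma called 0 of the 4, with an adjusted p of 0.0638 for RPL17 and 0.0822 for RPL5, and it called 0.658% of all probes. With the samples of consecutive numbers averaged, 3 against 3, limma called 0 of the 4 and 0% of all probes, and the smallest adjusted p of a member was 0.714 (RPL17).

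How the variation over the 12 samples was divided differed between the members. For RPL17, 52.2% of the sum of squares lay between the groups, 46% between pairs of consecutive numbers within a group, and 1.83% between the 2 samples of such a pair. For RPL5 these shares were 25.5%, 57.9% and 16.6%. The medians over complete probes were 16.9%, 68.1% and 6.75%. The dim small-subunit probes had more of their variation between samples of consecutive numbers, 42.2% for RPS10 and 37.5% for RPS6.

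Ordered by the mean of each pair of numbers, RPL17 was lowest in toc132 1 and 2 (-0.53, log2). Then came toc132 3 and 4 (-0.11), WT 1 and 2 (-0.051) and toc132 5 and 6 (-0.019). These 3 means did not differ from one another in order beyond the gap between the samples of a pair, but lay above toc132 1 and 2 by more than that gap. WT 3 and 4 (0.35) and WT 5 and 6 (0.51) stood above them by more than that gap. RPL5 was lowest in WT 3 and 4 (-2.21), clear of toc132 3 and 4 (-1.29) by more than the gap. Next came WT 5 and 6 (-1.17) and WT 1 and 2 (-1.06), within the gap of 0.91 between WT 5 and WT 6. Its highest mean was that of toc132 5 and 6 (-0.45), which did not exceed toc132 1 and 2 (-0.94) by more than the gap of 0.54. For RPS6 no neighbouring means in the order differed beyond the gap, from -3.23 in toc132 1 and 2 to -2.47 in WT 5 and 6. For RPS10 the lowest means, -3.41 in toc132 5 and 6 and -2.89 in WT 1 and 2, each came with a gap above 1 between the samples (1.79 and 1.32).

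The members did not vary as 1 unit over the 12 samples. RPL17 and RPS6 kept the most constant ratio, with an SD of their log2 ratio of 0.225 beside a median of 0.919 over all pairs of complete probes. A smaller SD was found in 0.181% of those pairs. Both probes also varied little by themselves, with SDs of 0.355 for RPL17 and 0.323 for RPS6 beside a median of 0.626. They lay on the same side of their own means in 11 of 12 samples. In the deposited values the SD of this ratio was 0.390, smaller in 3.1% of pairs, and the same side was taken in 9 of 12 samples.

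The other 5 pairs varied more, whether they joined proteins of the same subunit or not. The SD of the log2 ratio was 0.822 for RPL17 with RPL5, both of the large subunit, and 0.682 for RPS10 with RPS6, both of the small one. Between the subunits it was 0.680 for RPL17 with RPS10, 0.736 for RPL5 with RPS6 and 1.10 for RPL5 with RPS10. RPL17 and RPL5 were on the same side of their means in 3 of 12 samples. These values describe 12 samples that are not independent, since samples of consecutive numbers within a group are close.

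**Figure D3:**
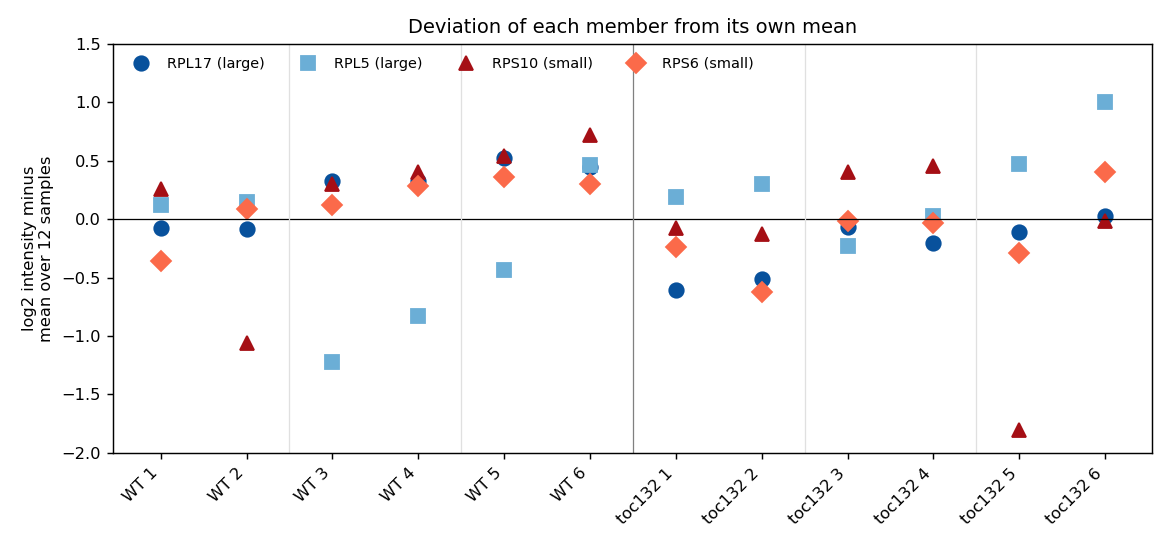
Deviation of the quantile-normalised log2 intensity (vertical axis) of each member from its own mean over 12 samples, by sample (horizontal axis). RPL17 and RPS6 lie on the same side of 0 in 11 of 12 samples, RPL5 is lowest in WT 3, and RPS10 is lowest in WT 2 and toc132 5.

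A ratio of 2 members within a sample is unaffected by any factor common to the sample. The log2 ratio of RPL17 to RPL5 in the deposited values was 1.87 ± 0.81 (SD, n = 6) for WT against 0.67 ± 0.46 (SD, n = 6) for toc132. By number, toc132 minus WT was -0.70, -0.69, -1.47, -1.42, -1.80 and -1.14 for numbers 1 to 6. It was thus lower in toc132 for all 6 numbers, numbers 1 and 2 included, while the ranges of the groups overlapped. After quantile normalisation it was lower for all 6 numbers too, with a mean difference of -1.08. The ratio of RPL17 to RPS6 in the deposited values was lower for all 6 numbers as well, by between -0.18 and -1.09, with means of 3.09 ± 0.22 (SD, n = 6) for WT against 2.56 ± 0.35 (SD, n = 6) for toc132. After quantile normalisation this ratio was lower for 4 of 6 numbers, with 0.27 for number 2 and 0.016 for number 5, and its mean difference was -0.23 in place of -0.53. Of all 4223871 pairs of complete probes, 18.3% had in the deposited values a ratio that moved the same way for all 6 numbers, beside 2 of the 6 pairs of members, which share RPL17. No test was made of a ratio. The ratio of RPL5 to RPS6 was higher in toc132 for 5 of 6 numbers, and that of RPS10 to RPS6 for 3 of 6.

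**Figure D4:**
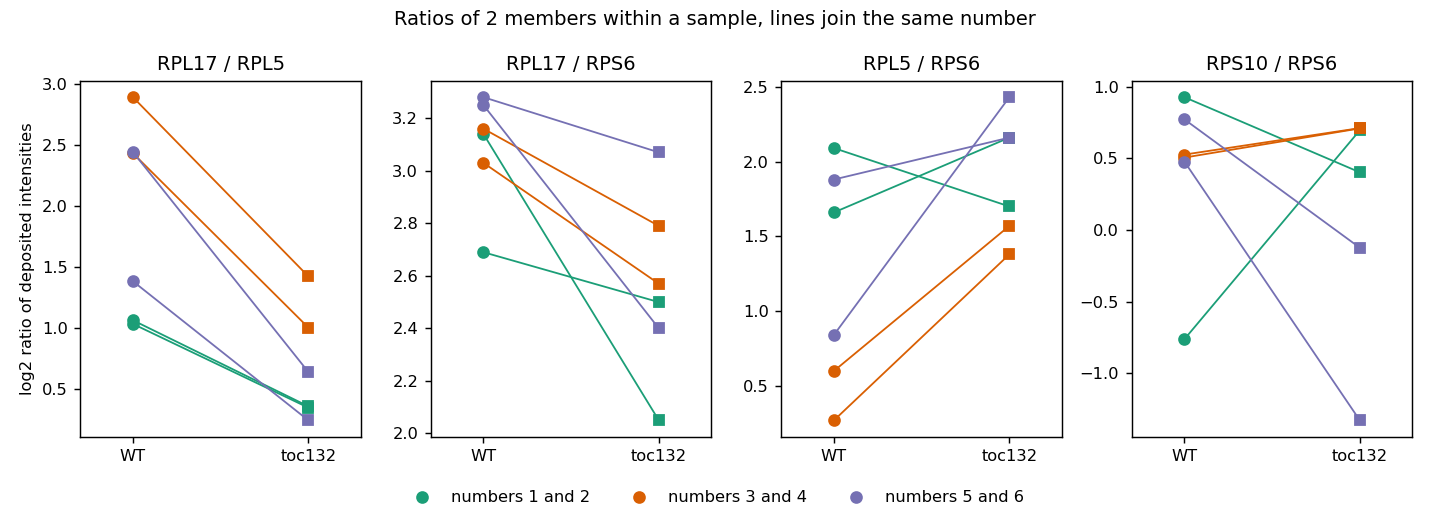
Log2 ratio of the deposited intensities of 2 members (vertical axis, 1 scale per panel) in WT (circles) and toc132 (squares), with lines joining samples of the same number. All 6 lines fall for RPL17 over RPL5 and for RPL17 over RPS6, and they run both ways for the other 2 ratios.

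With each probe centred on its own mean, the large-subunit pair was set against the small-subunit pair. The mean of RPL17 and RPL5 differed by 0.048 (log2) between toc132 and WT, with RPL17 and RPL5 differing in opposite directions. The mean of RPS10 and RPS6 differed by -0.33. Large minus small was -0.19 ± 0.45 (SD, n = 6) for WT against 0.19 ± 0.58 (SD, n = 6) for toc132, a difference of 0.37 that is smaller than the SD within either group. These SDs are spreads of single samples, and the difference was not tested. The difference was 0.19 in the deposited values and with median centring, and 0.20 with cyclic loess. Numbers 1 and 2 gave -0.19, numbers 3 and 4 gave 0.30, and numbers 5 and 6 gave 1.0. The last of these held the low RPS10 value of toc132 5, without which the overall difference was 0.17. Without WT 1 and 2 it was 0.62.

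**Figure D5:**
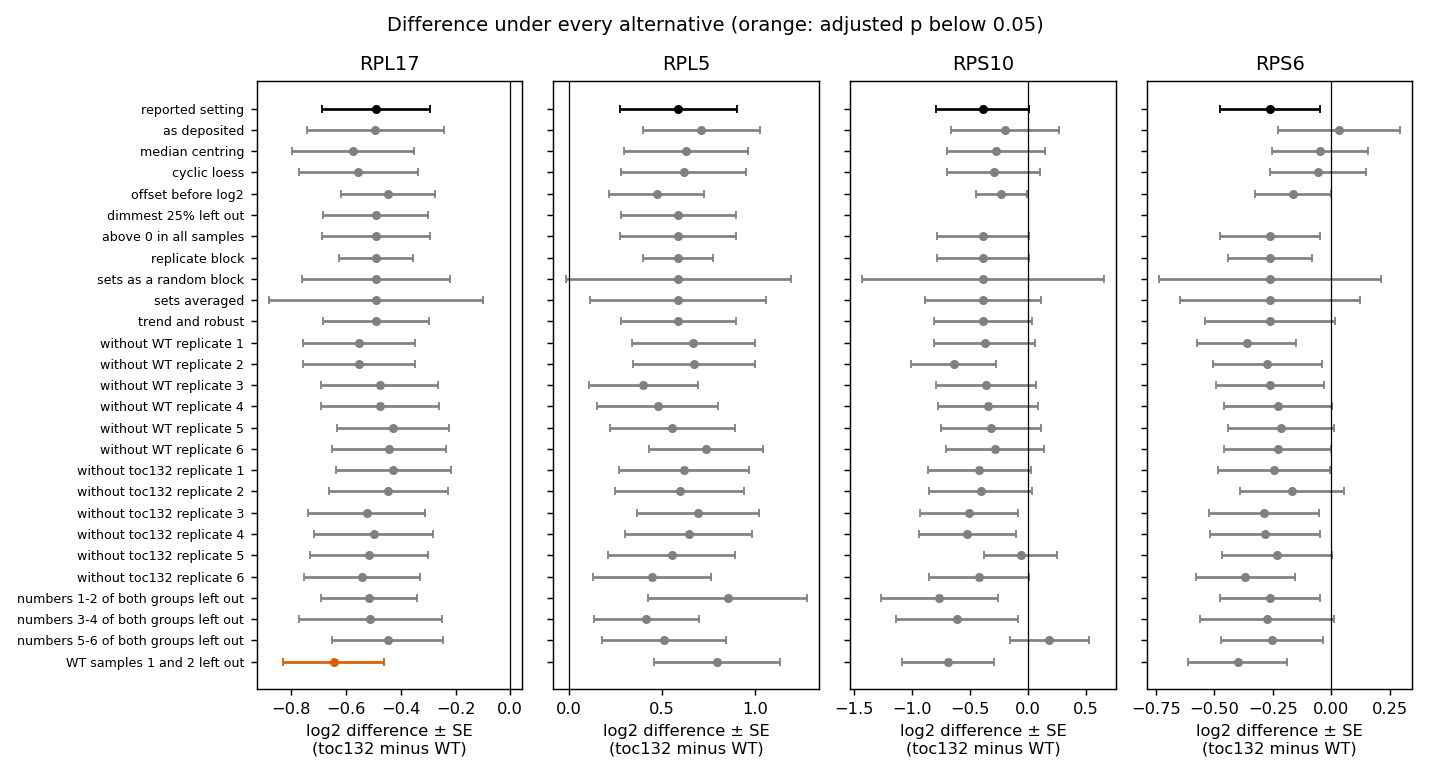
Log2 difference, toc132 minus WT (horizontal axis, ± SE), of the 4 members under the reported setting and every alternative (vertical axis). RPL17 stays below 0 and RPL5 above 0 throughout, with RPL17 passing an adjusted p of 0.05 only without WT samples 1 and 2; the gap for RPS10 and RPS6 is the setting without the dimmest 25% of probes, which holds neither.

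The genes with the most similar pattern were taken from 448 or 449 bright single-gene probes, by the root mean square difference of centred log2 values over 12 samples. For RPL17 they were AT4G25290 (0.127), AT1G65090 (0.131) and AT2G04540 (0.173), where the median candidate stood at 0.641. All 3 were lower in toc132 in each pair of numbers, by between -0.31 and -0.74. For RPS6 they were AT3G09050 (0.164), AT1G65090 (0.202) and RPL17 itself (0.215), beside a median of 0.629. For RPL5 the nearest were AT3G57120 (0.291), AT3G28460 (0.312) and ATSIK (0.317), beside 0.827. The nearest to RPS10 were more distant: AT4G34310 (0.460), AT4G26770 (0.517) and AT1G22850 (0.524), beside 0.879.

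Other genes of plastid translation were searched by locus tag among the probes with a single gene. Some of these probes carry a symbol in place of the locus tag, as with ATSIK, and the search would miss a gene annotated in that way. Of 41 nuclear genes listed for plastid ribosomal proteins, 6 were found with a probe of their own. The 2 besides the members had too few values above 0 to be tested. AT5G65220, listed as a large-subunit protein, stood at 0 in all 12 samples. AT1G29070, likewise listed for the large subunit, was above 0 in 4 WT and 3 toc132 samples. Its intensities there were 0.0402, 0.157, 0.0912 and 0.518 in WT 1, 3, 4 and 5, and 0.292, 0.236 and 0.438 in toc132 1, 2 and 5. Samples of consecutive numbers disagreed in 3 of 6 cases, with WT 1, WT 5 and toc132 5 above 0 and WT 2, WT 6 and toc132 6 at 0. Whether a 0 means an absent transcript or a failed measurement is not given in the sources used here. Of 22 genes listed for plastid translation factors and ribosome assembly, this search found 0 with a probe of their own. It found 3 on probes with several genes, from which no gene is named. Among 115 genes whose symbol or synonym in the RefSeq gene table names a ribosomal protein, 0 were found by locus tag on a probe of their own. A gene with such a symbol may be annotated under it, so this count does not show that these genes are absent from the array.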

How the data were processed

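Linear intensities of 3439 probes in 6 WT and 6 toc132 samples were used as deposited by the authors. How the array was read, corrected and scaled is not given in the sources used here, and an exact 0 may be an absent signal or a removed one. Zeros were set to missing, and log2 values were then quantile normalised. Quantile normalisation gives all samples 1 distribution. A probe needed at least 4 values per group, which 3190 probes met. The test was limma's (version 3.58.1, R 4.3.3; lmFit, eBayes, 2-sided, Benjamini-Hochberg over all tested probes, threshold 0.05), checked on simulated data. The simulated samples were drawn independently, so this check does not cover the closeness of samples with consecutive numbers. Plots used matplotlib 3.10.9 (Python 3.11.15).

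Groups and numbers came from the titles, and 0 columns lacked a sample. Deviations of same-numbered samples from their group means correlated at 0.33, 0.30, 0.20, 0.15, 0.44 and 0.39 across 2907 probes, all above the limit of 0.1. Same-numbered samples were therefore paired in the differences by number and in the replicate block. The reported fit, with its SE, p and interval, used no pairing. Samples of different numbers were not compared in this way, so the check cannot tell a shared number from a shared pair of consecutive numbers. The pairing comes from this check, not from a label.

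Probes were named through the platform annotation, in which 692 probes carry 1 gene, 870 several and 1877 none. Of the 692, 691 matched the RefSeq table of TAIR10.1, used for names only. The members, gene lists, sets of numbers and tests were chosen with earlier results of these data known. The genes named besides the members follow a fixed rule of similarity, 3 per member. The 4 members were complete in all samples. Alternatives covered scaling, an offset of 0.1, filters, blocks, variance model and samples left out. The list genes AT1G29070 and AT5G65220 were assigned from general knowledge.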

Additional observations from a re-analysis of the deposited data

Results flagged for a closer look

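RPS10 had a single low sample in each group. In WT it was sample 2, whose gap to the next value took 0.742 of the range of the group, and in toc132 it was sample 5, with 0.740, both above the critical value of Dixon's test for 6 samples. Chance gives such a gap in about 1 of 20 groups, and 8 groups of a member were looked at. The other sample of the same pair of numbers, WT 1 and toc132 6, was the next lowest of its group in the deposited values, at 0.1735 and 0.1702. After normalisation WT 1 was still the next lowest (-2.23, log2), while toc132 6 (-2.51) lay above toc132 1 and 2.

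The difference of RPS10 between toc132 and WT was higher for numbers 3 and 4 and lower for numbers 5 and 6 in both samples of each, -1.62 (log2) apart. This contrast was not tested. The directions were opposite with median centring (0.24 and -1.58) and cyclic loess (0.34 and -1.39) as well. In the deposited values, numbers 3 and 4 were lower too (-0.31), so the opposite directions were seen only after normalisation.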

How the results depend on the processing

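The number of probes called, 0 in the reported setting, was 1 with an offset before log2, 1 without the dimmest 25% of probes, 1 with a trended robust eBayes, 21 with the replicate block, 829 without numbers 1 and 2 of both groups and 1131 without WT 1 and 2; the cause was not tested. Leaving out each sample gave 0 to 422, with 387 without WT 1 and 422 without WT 2. The count of members called was 0 except without WT 1 and 2 (1, RPL17 at -0.65, stronger than the reported -0.49), and 0 to 0 when each sample was left out. The replicate block changed no call of a member. RPS6 turned to 0.034 in the deposited values and RPS10 to 0.18 without numbers 5 and 6 of both groups; the cause was not tested. Leaving out each sample, the log2 difference ran from -0.55 to -0.43 for RPL17, 0.40 to 0.74 for RPL5, -0.64 to -0.064 for RPS10 and -0.37 to -0.17 for RPS6, and large minus small from 0.17 to 0.52. Over all alternatives the latter ran from 0.067 to 0.68. The filter on dim probes left out RPS10 and RPS6, which have no value there. Over all alternatives the limma adjusted p of RPL17 ran from 0.0204 to 0.714 and that of RPL5 from 0.0822 to 0.784. How far a signal stood above background is unknown. This limits the dim small-subunit probes most, and RPL5 in WT 3 and WT 4 as well.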
